A study of Mus musculus with 8 samples.

Results

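The genes described here are those of glycolysis, glucose uptake and glycogen metabolism in the hearts of mice with and without a myocardial infarct. The list held 35 genes, from the glucose transporters Slc2a1 and Slc2a4 to the subunits of phosphorylase kinase, and a gene's probes were those whose only assigned symbol was that of the gene. Of the 35 genes, 32 had a probe, with 66 probes in all, among 13661 genes and 33600 spots on the array. Gpi1, Pfkfb1 and Eno1 had no probe under their symbol and were not analysed here. Aldoc had 1 probe with no value on any array, and Aldoa had too few values for the test, so that 30 members were tested.

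The mice were C57Bl/6, with an age of 8 to 10 weeks, and each whole heart gave RNA for 1 array, in 2 groups of 4. In the infarcted group the left coronary artery was tied for good at its descending branch. In the sham group the suture was passed under the artery and not tied. The time between ligation and collection is not given in the sources used here. No gene was altered in either group. Because whole hearts were used, an infarcted sample mixes scar, border and surviving muscle, and fewer cells of a type and less RNA per cell cannot be told apart. Each array carried 30 µg of heart RNA in the red dye beside a green reference pooled from many adult tissues, which included heart, liver and testicles.

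Glycolysis splits glucose into pyruvate and yields ATP without oxygen. The adult heart draws most of its ATP from fatty acids under normal supply, and it takes up more glucose when oxygen is short. Glucose enters through transporters, is trapped by hexokinase, committed by phosphofructokinase and either broken down to pyruvate and lactate or stored as glycogen, which phosphorylases release again. Many of these genes are known targets of hypoxia-inducible factors, whose binding sites often contain the letters ACGTG.

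The promoter windows below belong to the 5 tested members whose sham and infarcted arrays did not overlap. They are RefSeq sequences of the mouse build GRCm38.p6, with 250 bases before and 50 bases after the annotated start, read 5′ to 3′ on the gene's strand, which is the minus strand for all 5. Capitals mark ACGTG or its reverse complement CACGT.
Hk2 (chr6:82774405-82774704): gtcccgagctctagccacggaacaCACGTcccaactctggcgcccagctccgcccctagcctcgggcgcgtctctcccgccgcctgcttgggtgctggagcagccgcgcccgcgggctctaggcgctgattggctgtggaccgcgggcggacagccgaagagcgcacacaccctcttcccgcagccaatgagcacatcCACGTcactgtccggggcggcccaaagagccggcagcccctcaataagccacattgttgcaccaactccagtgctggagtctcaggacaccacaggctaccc
Gapdh (chr6:125165724-125166023): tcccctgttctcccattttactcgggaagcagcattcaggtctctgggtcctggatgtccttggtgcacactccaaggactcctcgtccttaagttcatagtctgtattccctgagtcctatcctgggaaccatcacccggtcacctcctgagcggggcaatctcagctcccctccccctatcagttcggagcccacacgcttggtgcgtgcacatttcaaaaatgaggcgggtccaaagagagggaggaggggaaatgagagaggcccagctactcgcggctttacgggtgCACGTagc
Pgam2 (chr11:5803747-5804046): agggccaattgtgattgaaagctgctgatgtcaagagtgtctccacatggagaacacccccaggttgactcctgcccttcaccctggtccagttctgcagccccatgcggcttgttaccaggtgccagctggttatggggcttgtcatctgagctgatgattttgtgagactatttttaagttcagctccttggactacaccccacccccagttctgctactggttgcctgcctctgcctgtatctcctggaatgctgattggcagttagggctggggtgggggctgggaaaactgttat
Ldhb (chr6:142507908-142508207): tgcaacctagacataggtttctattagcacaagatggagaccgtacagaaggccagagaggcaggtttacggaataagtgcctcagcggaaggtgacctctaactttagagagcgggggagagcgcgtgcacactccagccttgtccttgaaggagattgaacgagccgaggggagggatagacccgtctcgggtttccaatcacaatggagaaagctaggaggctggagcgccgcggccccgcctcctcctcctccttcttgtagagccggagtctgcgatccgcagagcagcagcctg
Pygl (chr12:70227634-70227933): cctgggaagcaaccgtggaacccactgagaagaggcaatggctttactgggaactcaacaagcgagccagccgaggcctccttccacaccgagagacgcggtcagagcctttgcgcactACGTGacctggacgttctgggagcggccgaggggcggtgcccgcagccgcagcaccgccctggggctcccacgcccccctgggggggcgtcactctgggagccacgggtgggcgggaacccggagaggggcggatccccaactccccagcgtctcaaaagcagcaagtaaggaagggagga
The Hk2 window held 2 matches, Gapdh and Pygl held 1 each, and Pgam2 and Ldhb held 0. Other forms of the binding site were not counted or marked. Windows were found for 34 of the 35 members. Of their 52 windows, 24 held the motif on either strand, or 46.2%, against 19.6% of all 32851 windows of the same length. The member windows were also richer in G and C, with a median of 59.7% against 52.7%. CACGT is also part of the E-box CACGTG, so the 2 motifs overlap, and a match is a description of letters and not a binding site.

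The deposited values were log2 values of 1 colour. Within each of the 48 printing blocks of an array they were whole-number scanner signals, from 42 to 65466, divided by the median of the block. The second channel is not among the values used here, and which channel was deposited is not stated in the sources used here. The values were treated as the heart RNA, and every direction below rests on that. Genes of heart muscle differed in level, and some stood high where they had a value. Actc1, cardiac actin, had 6.64 on the 1 sham array that gave it and a mean of 6.27 on the 4 infarcted arrays. Tnnt2, cardiac troponin T, had a mean of 6.68 on 2 sham arrays and 6.13 on 3 infarcted arrays. Others were lower: Ttn had means of 3.80 in sham and 3.92 in infarcted hearts. Myh7 ran from 0.71 to 5.08 on sham arrays and from 4.76 to 5.35 on infarcted arrays. Heart is also in the reference pool, as are liver and testicles. A list of liver genes had mean levels of 2.41 to 3.26 on sham arrays and 1.58 to 2.25 on infarcted arrays. The liver gene Ttr reached 4.35 and the germ cell gene Ldhc 3.86 on a sham array. Whether the deposited channel was that of the heart RNA was not tested. Values were present for 19704 to 24819 spots per sham array and 21916 to 23655 per infarcted array, and sham replicates 2 and 4 had the fewest. Arrays of 1 group correlated at 0.85 to 0.95 across spots. Among the very bright spots, more values were missing from sham arrays: 1073 probes had a signal above 20000 on some array, and they lacked 190 sham values and 38 infarcted values. The number of arrays limits the precision of every value.

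No member passed the test. With limma and Benjamini-Hochberg adjustment over all 18044 features, 0 of 30 members had an adjusted p under 0.05, and the lowest was 0.187 for Pygl. Across all features 99 passed, or 0.549%, with 10 higher (0.0554%) and 89 lower (0.493%) in infarcted hearts. That total itself ranged from 3 to 666 when single arrays were left out; it was 666 without sham replicate 4 and 3 without infarcted replicate 3. With no adjustment, 12 of 30 members had a p under 0.05, against 12.3% of all features. Of these 12, 7 were among the 10 members with a mean level above 4, where 528 of 1022 features had such a p. The count was 5 of 30 after loess normalization, which fits each array against the mean array to remove a shift that depends on level, and 4 of 30 after quantile normalization, beside 1703 and 1769 of all 18044 features. The log2 difference, infarcted minus sham, was below 0 in 21 members and above 0 in 9, with a median of -0.23. Among all features 57.5% were below 0 and the median was -0.08. The 4 infarcted arrays lay wholly below the sham arrays in 4 members, Hk2, Gapdh, Pgam2 and Ldhb, and wholly above them in 1, Pygl. Among all features the groups did not overlap in 8.89%, of which 6.27% lay below and 2.62% above. With a mean level above 4, 3 of the 10 members lay wholly below, beside 362 of the 1022 features.

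**Figure D1:**
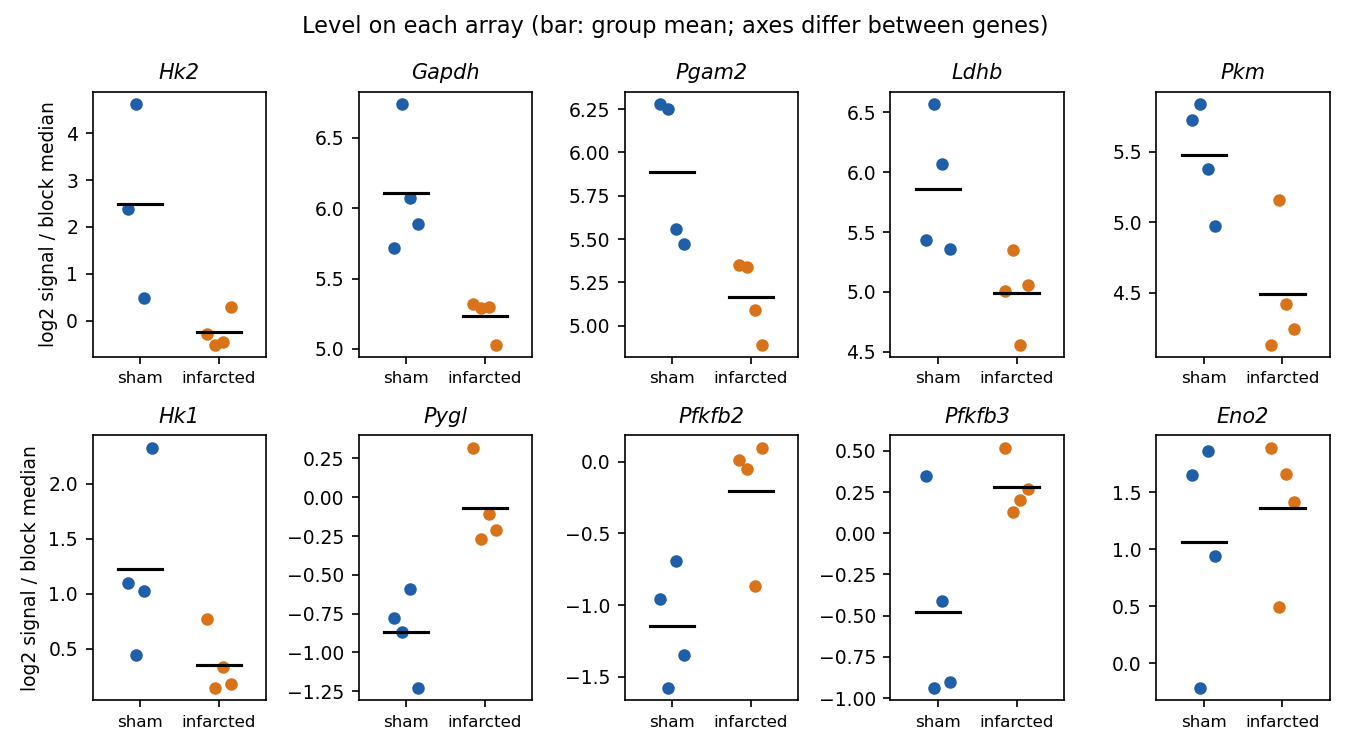
Log2 signal over the block median of 10 members in sham and infarcted hearts, each point 1 array and each bar a group mean, with an axis of its own for each gene. Hk2 spans 0.49 to 4.62 in sham hearts and lies between -0.51 and 0.29 in infarcted hearts, and Pygl lies above -0.30 on the infarcted arrays and below -0.50 on the sham arrays.

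All the members with bright probes had negative differences, and so did most bright features of the array. Of the 30 members, 10 had a mean level above 4, that is, more than 4 log2 units over the block median, and their differences ran from -0.99 to -0.39 with a median of -0.73. Of the 1022 features of the whole array above that level, 961 were negative and 61 positive, with a median of -0.72. The other 20 members had a median of -0.03, with 11 below and 9 above 0, beside -0.05 for the 17022 other features. The 99th percentile of the log2 values was 5.60 to 6.29 on sham arrays and 4.98 to 5.22 on infarcted arrays, so the infarcted arrays had the narrower range. After loess the median over members became 0.13 and over all features 0.01. There 9 members were below and 21 above 0. Hk2, below, and Pygl, above, were the 2 tested members whose groups still did not overlap. Of all 18044 features, 588 lay wholly below and 645 wholly above after loess. Quantile normalization gave a median of 0.09 over members. Both values are therefore given below for the bright members. Whether the narrower range arose in the hearts or in the scan was not tested.

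**Figure D2:**
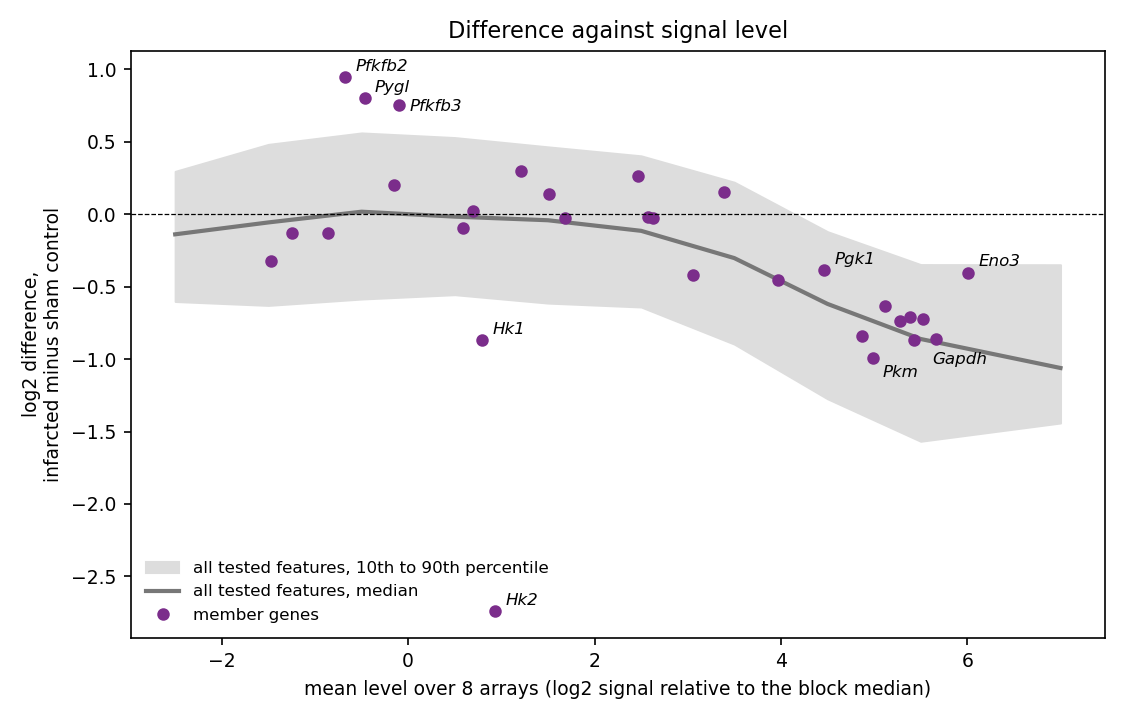
Log2 difference (infarcted minus sham) against mean log2 level over the 8 arrays. Points are the tested members, the line is the median of all tested features at each level and the grey band runs from their 10th to their 90th percentile. Members above a level of 4 lie between -0.99 and -0.39, around the median of -0.72 of all features at that level.

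The glucose transporters gave no difference past the threshold. Slc2a4, the insulin-responsive transporter of muscle and fat, had levels of 3.99, 5.12, 4.06 and 3.60 in sham hearts and 4.22, 3.82, 3.93 and 2.98 in infarcted hearts. The groups overlapped, with a log2 difference of -0.46 ± 0.38 (SE, n = 4 and 4; limma adjusted p = 0.691) that became 0.07 after loess. Slc2a1, the transporter of basal uptake, differed by -0.09 ± 0.22, with a 95% confidence interval from -0.59 to 0.40.

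Hexokinase traps glucose in the cell as its phosphate, and Hk2, the insulin-regulated form of muscle that binds mitochondria, had the largest difference among the tested members. Its levels were 2.38, 4.62 and 0.49 in sham replicates 1 to 3, with no value in replicate 4, and -0.29, -0.51, -0.45 and 0.29 in infarcted hearts. The sham hearts were spread over more than 4 log2 units and the infarcted hearts stood together below them. The means were 2.50 ± 2.07 (SD, n = 3) and -0.24 ± 0.36 (SD, n = 4). The log2 difference was -2.74 ± 0.80 (SE), or 6.68-fold, with a 95% confidence interval from -4.55 to -0.93 and a limma adjusted p of 0.194. It was -2.70 after loess and -2.53 after quantile normalization. Sham replicate 2 weighed most: without it the difference was -1.68. Without sham replicate 3 the difference was -3.745, so single sham hearts moved it both ways. Hk1, the widely expressed hexokinase, had levels of 1.10, 0.44, 1.02 and 2.33 in sham and 0.77, 0.14, 0.33 and 0.18 in infarcted hearts. Its mean difference of -0.87 ± 0.38 (limma adjusted p = 0.388) came from 2 probes that did not show the same: the brighter differed by 0.01 ± 0.32 and the dimmer by -0.84 ± 0.55. The dimmer probe had no value on sham replicate 4, whose level of 2.33 was the brighter probe alone. With the 2 probes centred first, the Hk1 difference was -0.285 ± 0.294 (limma adjusted p = 0.762).

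Phosphofructokinase commits sugar to glycolysis. Pfkm, its muscle subunit, had levels of 5.10, 6.19, 5.89 and 5.39 in sham hearts and 5.37, 5.28, 4.49 and 4.48 in infarcted hearts. Its difference was -0.74 ± 0.33 (limma adjusted p = 0.399) and 0.10 after loess. Pfkl and Pfkp, the subunits named for liver and platelets, differed by -0.02 ± 0.40 and -0.03 ± 0.34.

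The 2 bifunctional enzymes that make and break the activator of phosphofructokinase both had higher means in infarcted hearts, without passing the test. Pfkfb2, the form known from heart, had levels of -0.96, -1.58, -0.69 and -1.35 in sham and 0.01, -0.05, -0.87 and 0.10 in infarcted hearts. Infarcted replicate 3 stood within the sham range and the other infarcted hearts above it. The difference was 0.94 ± 0.30 (SE), or 1.92-fold, with a 95% confidence interval from 0.28 to 1.61 and a limma adjusted p of 0.220. Pfkfb3, the inducible form with high kinase activity, had 0.35, -0.94, -0.41 and -0.90 in sham and 0.52, 0.13, 0.20 and 0.27 in infarcted hearts. Sham replicate 1 stood among the infarcted hearts and the other 3 sham hearts below them. Its difference was 0.75 ± 0.31 (limma adjusted p = 0.353), with 0.66 ± 0.38 and 0.84 ± 0.29 from its 2 probes. These dimmer members changed little with loess, at 0.92 for Pfkfb2 and 0.74 for Pfkfb3. Without sham replicates 2 and 4, an alternative chosen after the data were seen, Pfkfb2 differed by 0.62 and Pfkfb3 by 0.31.

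**Figure D3:**
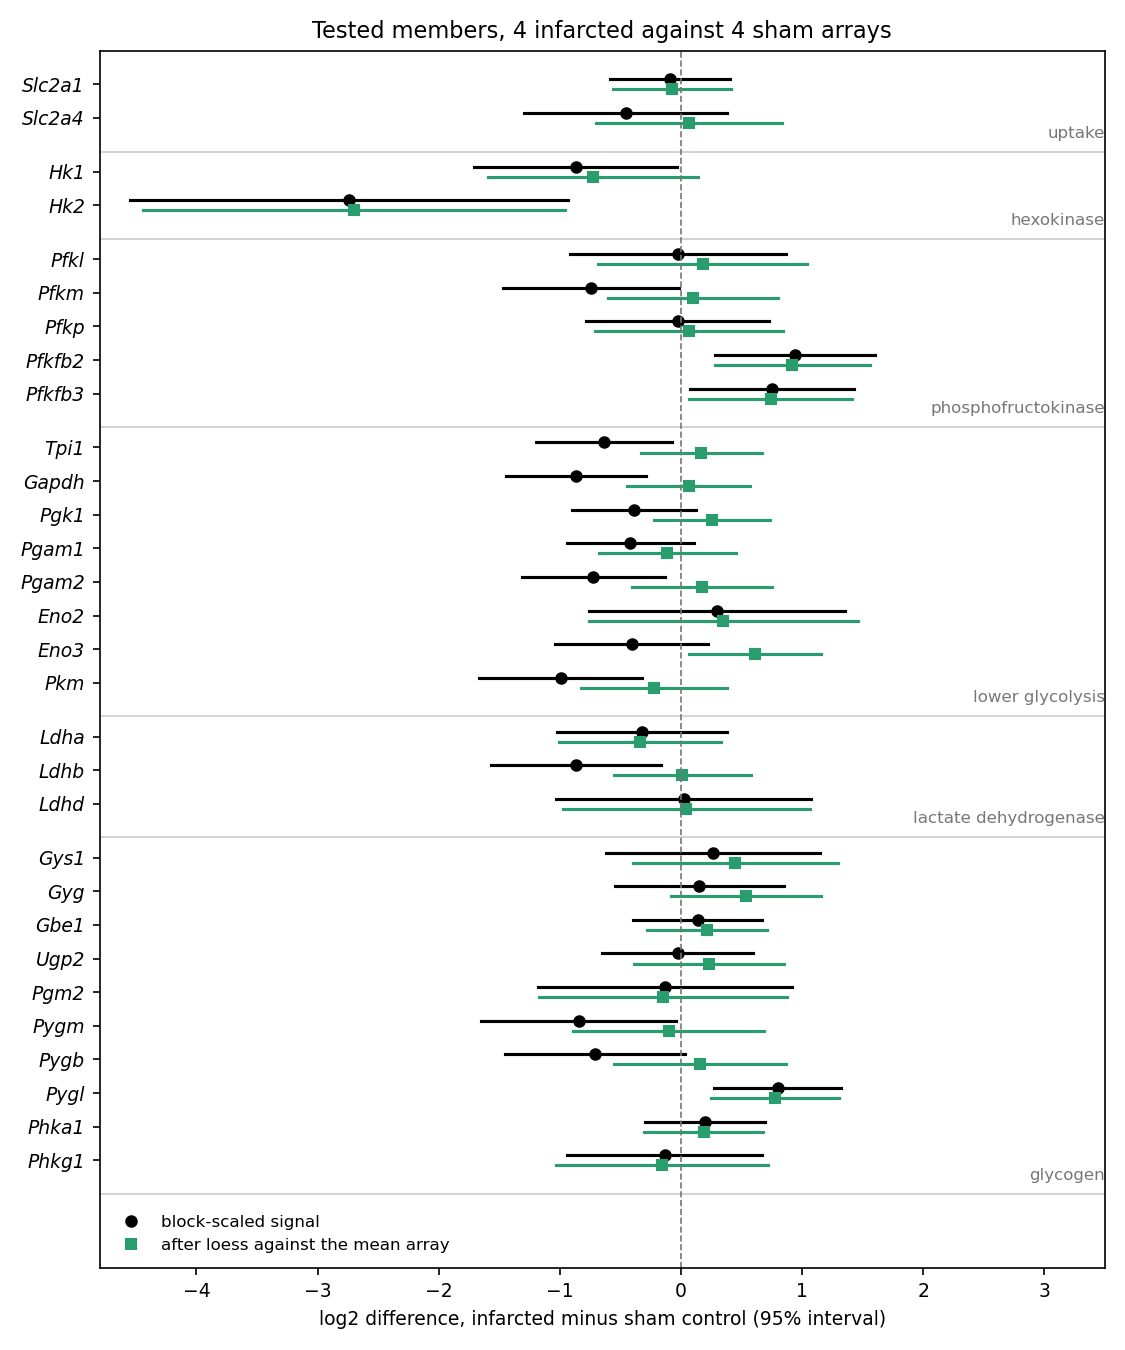
Log2 difference (infarcted minus sham) of each tested member with its 95% confidence interval, and its value after loess. Loess moves the bright members toward or past 0, with Gapdh going from -0.87 to 0.07, and leaves Hk2 at -2.70 and Pygl at 0.78.

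In the middle of the pathway, Aldoa, the muscle aldolase, was measured on 5 of the 8 arrays. Its levels were 7.26 and 6.74 on sham replicates 2 and 4 and 6.25, 6.28 and 5.92 on infarcted replicates 1, 2 and 4. The underlying signals were 64645 and 63960 on the sham arrays, close to the highest signal of any spot, 65466, and 23322 to 40605 on the infarcted arrays. A sham level this close to the top of the scale may be a lower bound, and 2 sham hearts and 1 infarcted heart had no value. Tpi1, which interconverts the 2 triose phosphates, had levels of 5.37, 5.87, 5.41 and 5.08 in sham and 4.96, 5.08, 4.41 and 4.75 in infarcted hearts. Its difference was -0.63 ± 0.25 (limma adjusted p = 0.345) and 0.17 after loess.

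Gapdh oxidises glyceraldehyde phosphate and is widely used as a reference gene. Averaged over its probes, it had levels of 5.72, 6.74, 6.07 and 5.89 in sham hearts and 5.32, 5.29, 5.30 and 5.03 in infarcted hearts. The infarcted hearts stood together below every sham heart. The means were 6.10 ± 0.45 and 5.24 ± 0.14 (SD, n = 4 each), and the difference was -0.87 ± 0.26 (SE), or 1.82-fold, with a limma adjusted p of 0.194. After loess the difference was 0.07 (limma adjusted p = 0.955) and after quantile normalization -0.05.

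Gapdh was printed at 26 spots. Their probe sequences are not given in the sources used here, so 1 probe printed many times and several probes cannot be told apart. Agreement between the spots may therefore be that of 1 probe with itself. The spots are repeated measurements of the same 8 RNA samples and not replicates. Of the 23 spots with enough values for the test, 21 had a negative and 2 a positive difference, with a median of -1.001 and a range from -1.61 to 0.35. In a fit of all 20561 single probes, 2 of the 23 passed, both lower, against 0.764% of all probes in either direction and 0.7% lower. An unadjusted p under 0.05 was reached by 17 of the 23, against 12.5% of all probes, and 56.8% of all probes had a negative difference. In 12 of the 23 spots the infarcted arrays lay wholly below the sham arrays, against 6.33%. Gapdh is bright, and these shares are over probes of all levels. Of the 1022 features with a mean level above 4, 961 were negative, 528 had an unadjusted p under 0.05 and 362 lay wholly below. One Gapdh spot that passed, in block 48, had levels of 8.00, 7.35, 7.03 and 6.75 in sham and 5.81, 5.53, 5.72 and 5.61 in infarcted hearts. Its difference was -1.61 ± 0.28 (limma adjusted p = 0.0392). The other, in block 41, differed by -1.44 ± 0.25 (limma adjusted p = 0.0445), with no value on sham replicate 1. Its signal reached 64175 and that of the brightest Gapdh spot 65044, both on sham arrays and close to the highest signal of any spot, 65466, so sham levels of the brightest spots may be lower bounds. Neither passed after loess, where the 2 differences were -0.48 and -0.36, or after quantile normalization. Over the 23 spots the loess median was -0.04, with 12 below and 11 above 0.

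Some Gapdh spots departed from the rest on single arrays. On sham replicate 1, 3 spots, in blocks 23, 31 and 40, read 2.24, 0.55 and 1.70, although each read at least 5.65 on the other sham arrays that gave it a value. The 2 positive differences belonged to the spots of blocks 31 and 40, and the spot of block 23 differed by -0.41 ± 0.92. Blocks 35, 36, 39 and 40 held 4 spots each, and their medians were -0.86, -0.91, -0.95 and -1.28. Whether place on the array mattered was not tested. Of 104 possible values in each group, the sham hearts lacked 10 and the infarcted hearts 0. With the 20 complete spots alone the means over spots were 5.93, 6.71, 5.88 and 5.72 in sham and 5.31, 5.21, 5.18 and 4.91 in infarcted hearts. Their difference was -0.91 ± 0.25 (limma adjusted p = 0.159), close to that over all spots. The complete spots still include those of blocks 23 and 40 that read low on sham replicate 1. On that array the median over the complete spots was 6.155, above their mean of 5.93. With the median over all spots in place of the mean, the Gapdh difference was -0.96.

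**Figure D4:**
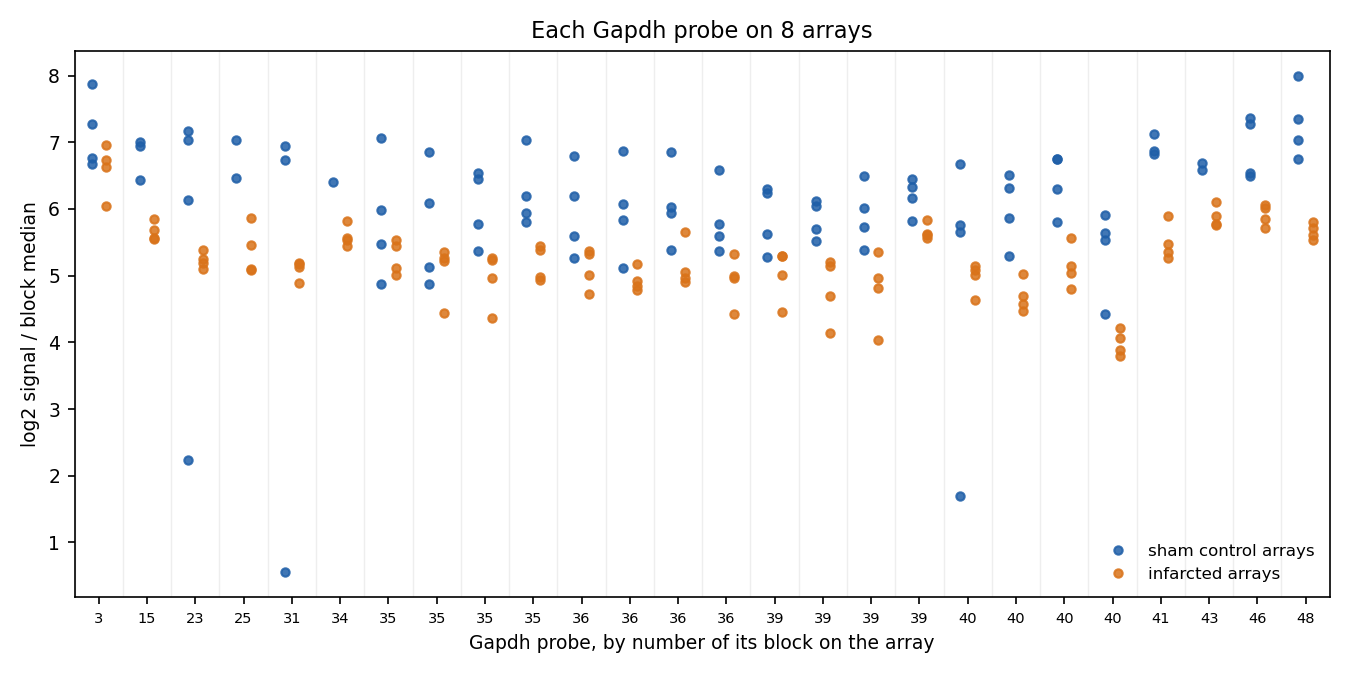
Log2 signal over the block median at each Gapdh spot, ordered along the horizontal axis by the number of its block, each point 1 sham or infarcted array. Means of the complete spots are 5.72 to 6.71 on sham arrays and 4.91 to 5.31 on infarcted arrays, and 3 spots fall far below the rest on sham replicate 1.

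From phosphoglycerate kinase to enolase, the members other than Eno2 had negative differences that loess reduced or turned. Pgam2, the muscle phosphoglycerate mutase, had levels of 6.28, 6.25, 5.56 and 5.47 in sham hearts and 5.35, 5.34, 5.09 and 4.89 in infarcted hearts. The infarcted hearts lay just below the lowest sham heart. The difference was -0.73 ± 0.26 (SE), with a 95% confidence interval from -1.32 to -0.14, a limma adjusted p of 0.293 and a loess value of 0.18. Pgam1, the widely expressed mutase, differed by -0.42 ± 0.23, and its 3 probes were spread from -0.91 ± 0.33 to 0.21 ± 0.33. Pgk1, the kinase that makes the first ATP of the pathway, differed by -0.39 ± 0.23 and by 0.26 after loess, and its 2 measured probes gave -0.38 ± 0.21 and -0.39 ± 0.27. Eno3, the muscle enolase, differed by -0.41 ± 0.28 and by 0.61 ± 0.24 after loess (limma adjusted p = 0.469), the highest loess value among the bright members. Eno2, the enolase named for neurons, had levels of 1.65, -0.22, 1.86 and 0.94 in sham and 1.89, 0.49, 1.66 and 1.41 in infarcted hearts. The groups overlapped, at 0.30 ± 0.47 (limma adjusted p = 0.855), and sham replicate 2 stood below all the other hearts.

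Pkm, the pyruvate kinase of muscle and most other tissues, had levels of 5.73, 5.84, 5.38 and 4.97 in sham and 4.13, 5.16, 4.42 and 4.24 in infarcted hearts. One infarcted heart, replicate 2, stood above the lowest sham heart, and the rest were below it. The means were 5.48 ± 0.39 and 4.49 ± 0.47 (SD, n = 4 each). The difference was -0.99 ± 0.30 (SE), or 1.99-fold, with a limma adjusted p of 0.199. It stayed negative after loess, at -0.22, and after quantile normalization, at -0.28. Its 2 probes gave -1.34 ± 0.42 and -0.65 ± 0.34, and the first read 2.99 on infarcted replicate 1.

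Lactate dehydrogenase turns pyruvate into lactate and back, and Ldhb is the subunit that predominates in heart. Ldhb had levels of 5.43, 6.57, 6.07 and 5.36 in sham and 5.01, 5.35, 4.56 and 5.06 in infarcted hearts. The highest infarcted heart, at 5.35, and the lowest sham heart, at 5.36, all but met. The difference was -0.87 ± 0.32 (limma adjusted p = 0.293) and 0.01 after loess. Ldha, the subunit of muscle and of hypoxic cells, was low on this probe, at -1.51 to -0.97 in 3 sham hearts and -1.96 to -0.99 in the 4 infarcted hearts, with a difference of -0.32 ± 0.31. Ldhd, which oxidises D-lactate, differed by 0.02 ± 0.47.

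In glycogen metabolism the differences of the 3 phosphorylases did not share a sign. Pygl, the liver phosphorylase, had levels of -0.78, -0.87, -0.59 and -1.23 in sham hearts and 0.32, -0.27, -0.11 and -0.21 in infarcted hearts. Every infarcted heart stood above every sham heart. The means were -0.87 ± 0.27 and -0.07 ± 0.26 (SD, n = 4 each), and the difference was 0.80 ± 0.24 (SE), or 1.74-fold, with a 95% confidence interval from 0.27 to 1.32 and a limma adjusted p of 0.187. It was 0.78 after loess, 0.81 after quantile normalization and between 0.67 and 0.89 when single arrays were left out. Pygl rests on 1 dim probe. Its signals before block scaling were 245 to 356 on sham arrays and 338 to 917 on infarcted arrays, and these overlap. Background correction is not given in the sources used here. Pygm, the muscle phosphorylase, had 5.24, 5.94, 4.73 and 5.26 in sham and 5.04, 4.89, 4.14 and 3.73 in infarcted hearts. It differed by -0.84 ± 0.36 (limma adjusted p = 0.380) and by -0.10 after loess. Pygb, the brain phosphorylase, differed by -0.71 ± 0.33 and by 0.16 after loess.

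The genes of glycogen synthesis had small differences with intervals that held 0. Gys1, the muscle glycogen synthase, differed by 0.27 ± 0.40. Gyg, the glycogenin that primes the chain, differed by 0.15 ± 0.31, and Gbe1, the branching enzyme, by 0.14 ± 0.24. Ugp2, which makes the UDP-glucose used for synthesis, differed by -0.03 ± 0.28 and by 0.30 ± 0.25 when its 3 probes were centred first, because missing values of single probes shift the plain mean. Pgm2, a phosphoglucomutase, differed by -0.13 ± 0.46. The subunits of phosphorylase kinase, which switches phosphorylase on, differed by 0.20 ± 0.22 for the regulatory Phka1 and -0.13 ± 0.36 for the catalytic Phkg1.

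Isoforms of 1 enzyme were compared within each array, as the difference between the 2 log2 values, which leaves out any shift common to the array but not one that depends on level. Of 11 pairs, 8 had values. None of the 8 passed an exact two-sided permutation test after Benjamini-Hochberg adjustment over the 8 pairs, for which the smallest possible unadjusted p was 0.0286 with 4 against 4 arrays and 0.0571 with 3 against 4. The difference Pygl minus Pygm was -6.16 ± 0.65 in sham and -4.52 ± 0.54 in infarcted hearts (SD, n = 4 each), a shift of 1.64 toward the liver form. The groups did not overlap, with an exact permutation p of 0.0286 and an adjusted p of 0.229. The shift was 0.88 after loess and 0.93 after quantile normalization. Pfkl minus Pfkm shifted by 0.72 (exact permutation p = 0.0571, adjusted 0.229), and by 0.08 after loess and 0.15 after quantile normalization. Ldha minus Ldhb shifted by 0.71 (exact permutation p = 0.286) and by -0.27 after loess, and Slc2a1 minus Slc2a4 by 0.36 (exact permutation p = 0.429) and by -0.15 after loess. Hk1 minus Hk2 shifted by 2.24 over 3 sham and 4 infarcted arrays (exact permutation p = 0.114). That shift was 0.97 without sham replicate 2 and 3.33 without sham replicate 3.

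A further 71 genes were listed from the same and adjoining pathways, among them fructose bisphosphatases, other isozymes and regulators of glucose uptake. Of these, 48 had a probe and 43 were tested, and 0 of 43 passed, against 0.549% of all features. With no adjustment, 10 of 43 had a limma p under 0.05, against 12.3% of all features. After loess 6 of 43 did, beside 1703 of all 18044 features. Of the 43, 16 had positive and 27 negative differences, against 57.5% negative among all features. The median was -0.19, and 0.03 after loess. The infarcted arrays lay wholly below the sham arrays in 5 and wholly above in 1, against 6.27% and 2.62% of all features. After loess 19 were negative and 24 positive, and the groups did not overlap in 2 each way, beside 588 below and 645 above of all 18044 features. Fbp2, the muscle fructose bisphosphatase that acts against phosphofructokinase, had 2.64, 2.10, 2.29 and 2.11 in sham and 1.37, 1.08, 1.48 and -0.14 in infarcted hearts, with a difference of -1.34 ± 0.36 (limma adjusted p = 0.145). Txnip, an arrestin that restrains glucose uptake, differed by -0.94 ± 0.29 (limma adjusted p = 0.211), from sham levels of 5.17 to 6.31 and infarcted levels of 4.51 to 4.90. This gene too is bright, and its difference was -0.12 after loess and -0.14 after quantile normalization. The transporter Slc2a3 differed by -0.60 ± 0.23, and G6pc3, a widely expressed glucose phosphatase, by -0.64 ± 0.21. Pgm3, which acts on a sugar phosphate of amino sugar synthesis, was the 1 above, at 0.55 ± 0.21 (limma adjusted p = 0.330).

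The remaining gene of these 6 was Ldhc, the lactate dehydrogenase of germ cells. Its levels were 3.79, 2.70, 3.86 and 3.29 in sham and 2.28, 2.18, 2.21 and 2.29 in infarcted hearts, a difference of -1.17 ± 0.28 (limma adjusted p = 0.110). Gapdhs, the sperm form of Gapdh and named here after its values were seen, had 3.64, 2.30, 3.90 and 3.24 in sham and 2.41, 2.46, 2.54 and 2.70 in infarcted hearts. Its groups overlapped, with a difference of -0.75 ± 0.33 (limma adjusted p = 0.406). Sham replicate 2 was the lowest sham heart for both genes. Both passed without sham replicates 2 and 4, at -1.59 ± 0.23 for Ldhc (limma adjusted p = 0.00712) and -1.24 ± 0.24 for Gapdhs (limma adjusted p = 0.0205). That alternative was chosen after the data were seen, and 1132 of all 17739 features passed in it. Neither is known as a gene of heart, and testicles are in the reference pool.

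Marker lists of other cell types were measured beside these values. Of 9 liver genes, also from a tissue of the reference pool, 7 were tested, all with negative differences and a median of -0.84, and none passed. Their mean level was 2.41 to 3.26 on sham arrays and 1.58 to 2.25 on infarcted arrays. The 15 macrophage genes tested, of 18 listed, had mean levels of 0.86 to 1.23 on sham and 1.40 to 1.93 on infarcted arrays, and 13 of them had positive differences. The 12 fibroblast genes had mean levels of 2.15 to 2.55 and 2.02 to 2.45, and the 6 skeletal muscle genes with all values -1.07 to -0.59 and -0.72 to 0.26. Of 8 endothelial genes tested, 1 passed: Ramp2, a receptor partner of vascular endothelium, differed by -3.05 ± 0.31 (limma adjusted p = 0.01, n = 3 and 4), and the list's median was -0.19. Of 4 erythroid genes tested, 2 were negative and 2 positive, and none passed; the haemoglobin gene Hba-a1 differed by -1.78 ± 0.33 (limma adjusted p = 0.0586, n = 3 and 4) and Hbb-bt by -1.61 ± 0.45 (limma adjusted p = 0.179, n = 3 and 4). Heart muscle genes with a value on all arrays, 5 of 14, had mean levels of 3.03 to 4.59 in sham and 4.32 to 4.75 in infarcted hearts. Of 7 heart muscle genes tested, 6 had positive differences and 1 a negative one, and none passed. Their median was 0.27, and 1.41 after loess. Myh7 differed by 1.79 ± 0.75, Nppb by 0.91 ± 0.29, Nppa by 0.88 ± 0.68 and Mybpc3 by -1.11 ± 0.38. Tnnt2, Tnni3, Tnnc1, Actc1 and Myl2 had values on only 1 or 2 sham arrays and were not tested. Each of them was lower on every infarcted array with a value than on those sham arrays. Myl3 had no sham value. The part of these cell types, or of reference signal in the deposited channel, in the values of the glycolytic and glycogen genes was not tested.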

How the data were processed

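RNA of 8 hearts was hybridised to 2-colour arrays of 70-base probes. The authors deposited 1 log2 value per spot, which was each spot's signal over its block median, within 0.001 of a whole number after rescaling in all 384 blocks of the 8 arrays. Scanner software, background correction and spot flags are not given in the sources used here. Of the probes, 18179 had 1 symbol, 87 had several and 15334 were not listed, the last 2 kinds being tested unnamed. Here each array was centred on its median and probes of 1 gene were averaged. Features with at least 3 values in each group were tested on the log2 scale with limma 3.58.1 in R 4.3.3 (lmFit and eBayes, Benjamini-Hochberg adjustment, threshold 0.05), and the procedure was tested on simulated data. Pairs of isoforms were tested with scipy 1.17.1 in Python 3.11.15. Loess used a span of 0.3. All members were named, with values on every array for members whose groups did not overlap, the 4 largest differences each way, and Gapdh. Members and lists were chosen with earlier results of these data known. Each heart is a separate sample per the labels. Alternatives were quantile and loess normalization, array scaling, other filters and rules for several probes, a moderated trend, a replicate block and single arrays left out.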

Additional observations from a re-analysis of the deposited data

Results flagged for a closer look

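Among 103 groups of 4 arrays examined for members and Gapdh spots, 6 had 1 array farther from the others than Dixon's 95% criterion allows, and chance alone gives about 1 in 20 such groups. For Pfkfb2, infarcted replicate 3 had -0.87 beside -0.05 to 0.10 in the other infarcted hearts. For Gapdh, infarcted replicate 4 had 5.03 beside 5.29 to 5.32. For Ldhd, sham replicate 1 had -0.88 beside 0.97 to 1.34. For Phkg1, sham replicate 2 had 0.17 beside -1.17 to -1.04. Of the single Gapdh spots, one in block 35 had 4.44 on infarcted replicate 4 beside 5.22 to 5.35, and one in block 39 had 5.83 on infarcted replicate 1 beside 5.57 to 5.62.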

How the results depend on the processing

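No member passed in any of the 21 alternatives. The count over all features, 99, was 32 with quantile normalization, 28 with loess, also with probes centred, 27 with array scaling, 3 to 666 with single arrays left out and 1132 without sham replicates 2 and 4, where 2 other pathway genes passed. With a replicate block it was 1 and no member passed. Deviations from the group means correlated at -0.19 to 0.31 between same-number arrays over 4 pairs. So few pairs cannot decide whether the numbers pair the hearts. The median over members, -0.23, became 0.13 with loess, also with probes centred. The 2 Gapdh spots that passed became 0 with loess and 0 with quantile normalization. Differences turned sign as follows. Loess gave 0.069 for Slc2a4, 0.18 for Pfkl, 0.10 for Pfkm, 0.066 for Pfkp, 0.17 for Tpi1, 0.065 for Gapdh, 0.26 for Pgk1, 0.18 for Pgam2, 0.61 for Eno3, 0.011 for Ldhb, 0.16 for Pygb and 0.23 for Ugp2. Centring probes as well gave 0.025 for Gapdh and 0.54 for Ugp2. Quantile normalization gave 0.081 for Slc2a4, 0.21 for Pfkl, 0.066 for Pfkm, 0.083 for Pfkp, 0.14 for Tpi1, 0.28 for Pgk1, 0.12 for Pgam2, 0.45 for Eno3, 0.10 for Pygb and 0.23 for Ugp2. Array scaling gave 0.005 for Slc2a1, 0.038 for Pfkl, -0.26 for Ldhd, -0.09 for Gbe1 and 0.12 for Phkg1. Ugp2 was 0.28 with the median over probes, 0.49 with complete probes and 0.30 with probes centred, and Hk1 was 0.014 with complete probes. The replicate block gave 0.20 for Pgm2. Without sham replicates 2 and 4, Eno2 was -0.40 and Phkg1 0.16. Of the isoform pairs, Slc2a1 minus Slc2a4 was -0.15 with loess and with quantile normalization, Pgam1 minus Pgam2 -0.29 and -0.26, Ldha minus Ldhb -0.27 and -0.35, and Pfkp minus Pfkm -0.035 with loess. With single arrays left out, Pfkp ranged from -0.32 to 0.16, Ldhd from -0.50 to 0.24, Pfkl from -0.27 to 0.29, Eno2 from -0.12 to 0.59, Ugp2 from -0.15 to 0.11, Phkg1 from -0.29 to 0.19 and Pgm2 from -0.41 to 0.20. Over the 21 alternatives, 11 members kept their sign: Gyg, Gys1, Hk2, Ldha, Pfkfb2, Pfkfb3, Pgam1, Phka1, Pkm, Pygl and Pygm. The cause of each change was not tested. With 4 arrays per group and most spread in the sham arrays, intervals of about 1 log2 unit or more limit what could be seen.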
